A study of Mus musculus with 25 samples.

Results

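KLF4 chromatin contacts were compared between mouse fibroblasts on day 6 of reprogramming and established embryonic stem (ES) cells. The members were the 8 KLF4 HiChIP libraries with these labels, 4 per group, out of 25 libraries in 9 groups, and the 2 lists of high-confidence interactions that belong to them. An interaction is a pair of 10 kb bins on the same chromosome. The day 6 list held 4047 interactions and the ES list 24589, and 2079 of them stood in both. Day 6 cells were reprogrammable fibroblasts from E13.5 rtTA3-OKSM embryos, heterozygous for an Oct4-GFP reporter, for the OKSM cassette (Oct4, Klf4, Sox2 and Myc) and for rtTA3 (written as Rosa26-M2rtTA/Col1a1-OKSM in the design text). They had been kept in doxycycline, which switches the cassette on, with ascorbic acid for 6 days, and per the series' design text they were sorted for the surface marker SSEA1, which marks cells on the way to pluripotency. The cassette encodes KLF4 itself, and the labels do not say that the antibody tells cassette from endogenous protein. ES cells were the line V6.5, grown in 2i medium without the cassette. Groups used for other readouts were the same fibroblasts without doxycycline at passage 3 (H3K27ac HiChIP and Hi-C, embryos of E13.5 with the same alleles), those fibroblasts on day 3 of doxycycline and ascorbic acid, unsorted (KLF4 HiChIP), and V6.5 ES cells in 2i (H3K27ac HiChIP and Hi-C). Both KLF4 groups were fixed with 1% formaldehyde and precipitated with a KLF4 antibody, for which a catalogue number is given only for ES library 1. The files hold no transcripts, so the cell types could not be checked against marker genes.

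KLF4 is a zinc finger transcription factor that binds GC-rich motifs at promoters and enhancers, and it is one of the factors of the reprogramming cassette. In ES cells it belongs to the network that keeps naive pluripotency, together with OCT4 (gene Pou5f1), SOX2, NANOG and ESRRB, while in fibroblasts it first meets a genome whose active enhancers serve mesenchymal genes. In HiChIP, neighbouring DNA ends of fixed nuclei are ligated and the products are enriched with an antibody, so a KLF4 contact is a pair of regions of which at least one was precipitated with KLF4. H3K27ac, used below for comparison, is a histone mark of active enhancers and promoters.

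The day 6 libraries held 48.7 to 129 M (mega) contacts (mean 89.0 ± 34 M, SD, n = 4) and the ES libraries 51.9 to 102 M (79.3 ± 21.2 M, SD, n = 4). The listed interactions took 0.0786% to 0.0940% of the contacts at day 6 and 0.607% to 0.72% in ES, with a median of 11 to 24 and 14 to 24 counts per interaction and library. Strength is given as CPM, the contacts divided by all contacts of the same chromosome in the library, per M, so levels on different chromosomes are not on 1 scale. Every listed interaction had a CPM above 3 in libraries 1 and 2 of its group, while in libraries 3 and 4 up to 20.2% (day 6) and 18.7% (ES) lay below it. An interaction that a list lacks can lie under this minimum, or can have been left out for another reason, such as its deposited p-value. Its strength is therefore unknown. Counts of the ES libraries 1 and 2 agreed within sampling noise (chi-square per degree of freedom 1.01), as did 3 and 4 (0.966), whereas libraries from different pairs differed (1.25 to 1.503). Each of these pairs was summed and counted as 1 sample, which leaves n = 2 for ES in the tests. For no pair of day 6 libraries did the chi-square test over 904 interactions find a difference (0.951 to 1.03), and because no other pair of that group differed they were kept as 4 samples. Nothing but the design text's word "biological" says that the libraries came from separate cultures, and p-values measure the spread between these libraries.

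The promoters below belong to genes whose KLF4 contacts carry the results on strength: Zfp42, Trim28 and Malat1 had a contact that was higher in ES, and Prdx3, Myof and Tjp1 one that was lower. Each line gives the 250 bases upstream of the gene's start, 5′ to 3′ on the gene's strand, from RefSeq on GRCm38.p6 (mm10). Capitals mark matches to the KLF core motif GGGNGTGG or its reverse complement CCACNCCC, and matches that overlap were counted separately. Zfp42 lies on the minus strand (chr8:43307010-43307259) and held 1 match, Trim28 on the plus strand (chr7:13023902-13024151) held none, and Malat1 on the minus strand (chr19:5802673-5802922) held none. Prdx3 (chr19:60874539-60874788) held 2, Myof (chr19:38043578-38043827) none and Tjp1 (chr7:65371245-65371494) 1, all on the minus strand. The Tjp1 start used is an internal one, since the gene extends upstream of it to 65527850.
Zfp42: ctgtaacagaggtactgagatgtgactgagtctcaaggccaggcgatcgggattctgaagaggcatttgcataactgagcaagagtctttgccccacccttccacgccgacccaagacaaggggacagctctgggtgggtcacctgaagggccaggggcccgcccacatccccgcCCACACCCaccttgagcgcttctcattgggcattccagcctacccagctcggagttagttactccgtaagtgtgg
Trim28: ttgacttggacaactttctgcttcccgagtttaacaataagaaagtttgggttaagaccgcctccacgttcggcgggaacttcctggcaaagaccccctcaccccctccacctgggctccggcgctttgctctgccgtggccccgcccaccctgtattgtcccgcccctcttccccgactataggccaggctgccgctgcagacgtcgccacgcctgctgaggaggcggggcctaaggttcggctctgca
Malat1: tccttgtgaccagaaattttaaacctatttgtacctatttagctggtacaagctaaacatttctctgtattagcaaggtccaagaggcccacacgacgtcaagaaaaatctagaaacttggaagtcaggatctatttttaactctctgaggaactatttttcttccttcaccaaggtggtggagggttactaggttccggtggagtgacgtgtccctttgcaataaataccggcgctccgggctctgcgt
Prdx3: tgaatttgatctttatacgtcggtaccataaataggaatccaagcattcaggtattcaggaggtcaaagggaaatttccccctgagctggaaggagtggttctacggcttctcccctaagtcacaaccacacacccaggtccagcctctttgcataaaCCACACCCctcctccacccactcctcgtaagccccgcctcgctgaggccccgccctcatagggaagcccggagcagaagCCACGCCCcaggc
Myof: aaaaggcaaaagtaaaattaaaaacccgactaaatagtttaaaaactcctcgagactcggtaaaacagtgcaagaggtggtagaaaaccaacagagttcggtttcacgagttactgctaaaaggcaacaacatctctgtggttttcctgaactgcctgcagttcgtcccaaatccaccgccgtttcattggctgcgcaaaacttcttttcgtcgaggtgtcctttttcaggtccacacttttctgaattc
Tjp1: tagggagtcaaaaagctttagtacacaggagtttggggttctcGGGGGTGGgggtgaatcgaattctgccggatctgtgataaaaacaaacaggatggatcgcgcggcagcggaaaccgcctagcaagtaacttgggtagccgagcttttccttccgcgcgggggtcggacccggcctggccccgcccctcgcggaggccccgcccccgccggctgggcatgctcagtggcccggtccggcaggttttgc

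The motif stood in 15.9% of all 32851 promoters of this length, and in 17.7% of the 21263 that belong to protein-coding genes. Among promoters in the bins of day 6 contacts the share was 23.3% (n = 2108), and among those in the bins of ES contacts 21.3% (n = 9460). Promoters in bins of both lists held it in 24.4% of cases (n = 1788), those in bins of day 6 contacts alone in 16.9% (n = 320) and those in bins of ES contacts alone in 20.6% (n = 7672). A match is a description of the letters and not a mapped KLF4 site.

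The first comparison asked how many KLF4 contacts of day 6 were also listed in ES cells. Of the 4047 day 6 interactions 51.4% stood in the ES list with both anchors in the same bins (95% Wilson interval 49.8% to 52.9%), and these made up 8.46% of the ES list (8.11% to 8.81%). These intervals hold counting error alone, since reads of PCR copies are not independent molecules. Single anchors were shared more widely: the day 6 list used 6088 bins and the ES list 25332, and the 4177 bins in common were 68.6% of the day 6 bins and 16.5% of the ES bins. Among the 1968 interactions of day 6 alone, 825 had neither anchor in the ES list, 622 had 1 and 521 had both anchors there but paired with other bins. Among the 22510 of ES alone, 15837 had neither anchor in the day 6 list, 5368 had 1 and 1305 had both. With both lists cut to the 4047 strongest, the overlap was 854 interactions, 21.1% of each list, and with anchors allowed to lie 1 bin away it was 67.4% of the day 6 list and 20.3% of the ES list.

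The second comparison asked whether the contacts in both lists were equally strong. In the day 6 libraries 1 to 4 the median CPM over the 2079 common interactions was 5.17, 4.71, 4.995 and 4.46, and in the ES libraries 1 to 4 it was 7.41, 7.59, 6.72 and 6.60. Every ES library thus lay above every day 6 library. With the ES pairs summed, the median log2 ratio of ES over day 6 was 0.55 over the 8 pairs of samples (0.36 to 0.77), and among contacts 50 kb or more apart it was 0.40 (0.08 to 0.66).

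The raw counts of single interactions were compared by the quasi-likelihood test of edgeR, with p-values adjusted by Benjamini-Hochberg over all of them, and called at an adjusted p under 0.05. TMM factors, which set the bulk of the tested contacts to no change, left a median log2 ratio of -0.01, against 0.58 when libraries were scaled by contact totals alone. Relative to this common shift, 70 of 2076 interactions were called (3.37%), 54 higher in ES (2.6%) and 16 lower (0.771%), so that 77.1% of the calls were higher. Under contact totals alone 1158 were higher (55.8%) and 1 lower (0.0482%), a share of 99.9% higher. Leaving out day 6 library 1, 2, 3 or 4 gave 35, 11, 33 or 18 calls, and leaving out ES library 4 gave 31. With libraries 1 and 2 of both groups alone the median log2 CPM ratio was 0.58, and with libraries 3 and 4 alone 0.50. Each of these subsets has 1 ES sample and measures no spread between ES samples, so calls are not given.

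**Figure D1:**
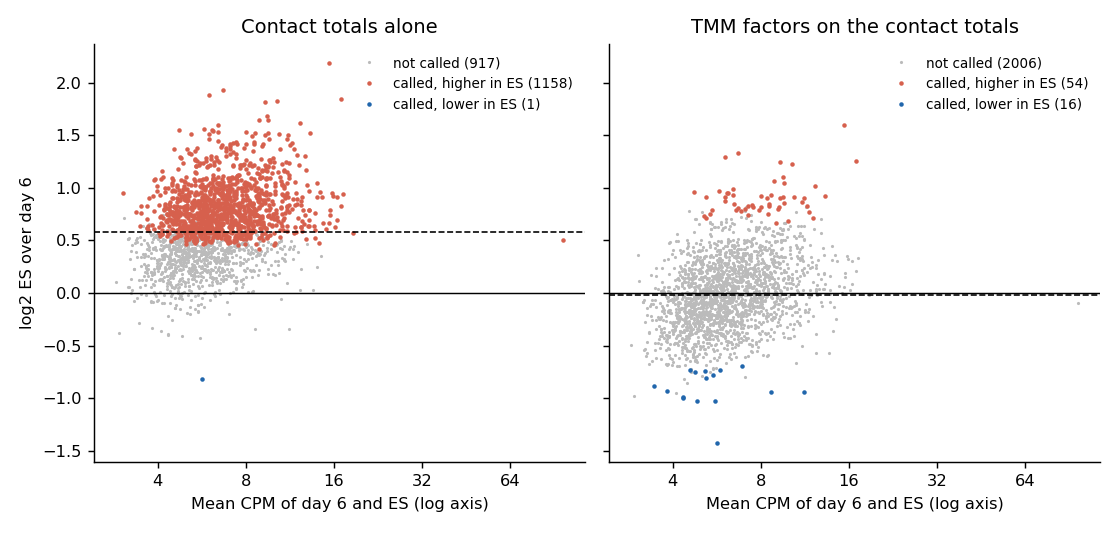
Log2 ratio of ES over day 6 against mean CPM for the 2076 tested KLF4 interactions, 1 point each, scaled by contact totals alone (left) or with TMM factors (right). The dashed line is the median, 0.58 on the left and -0.01 on the right; red and blue points were called higher or lower in ES.

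The 10 largest increases among calls whose CPM did not overlap between groups were led by a 40 kb contact between the start of Malat1 and the body of Neat1 on chromosome 19 (bins from 5800001 and 5840001). Malat1 and Neat1 are neighbouring genes for abundant nuclear long noncoding RNAs. The contact had a CPM of 4.55, 7.125, 5.67 and 6.52 in the day 6 libraries and 16.25, 17.5, 33.5 and 31.98 in the ES libraries. All ES values lay above all day 6 values, with the ES libraries 3 and 4 about level and above 1 and 2. Its log2 ratio was 1.6 ± 0.26 (SE; adjusted p = 0.000127, edgeR).

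Zfp42, also called Rex1, is a zinc finger gene used as a marker of naive ES cells. The contact between its start bin (chromosome 8, from 43300001) and a bin 20 kb away without a gene had a CPM of 5.34, 3.02, 2.29 and 2.48 at day 6 and 7.399, 6.09, 10.8 and 10.7 in ES. The groups did not overlap, and the log2 ratio was 1.29 ± 0.24 (adjusted p = 0.000816, edgeR). Libraries 1 and 2 alone gave a log2 ratio of 0.57 and libraries 3 and 4 alone 1.89, each with 1 ES sample and given without a test.

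Slc2a3 encodes the neuronal-type glucose transporter GLUT3 and lies beside Nanog on chromosome 6. A 20 kb contact inside the gene (bins from 122740001 and 122760001) had 3.99, 4.23, 5.16 and 4.26 CPM at day 6 and 13.3, 12.8, 16.6 and 21.6 in ES, with no overlap. It rose by 1.23 ± 0.21 on the log2 scale (adjusted p = 0.000182, edgeR), and 2 further contacts in the gene body, from 122740001 to 122750001 and from 122760001 to 122780001, were called with log2 ratios of 0.67 and 0.93. The 3 contacts share bins, so they are not independent.

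The other named increases were spread over 7 loci. A 20 kb contact ending in Erich1 (chromosome 8, from 14010001) rose by 1.33 ± 0.21, with 2.17 to 4.11 CPM at day 6 and 6.496 to 12.2 in ES. An adjacent pair at 2410137M14Rik and H2-M5, in the major histocompatibility region of chromosome 17 (from 36970001), rose by 1.25 ± 0.20, from 7.24 to 9.02 CPM at day 6 to 15.7 to 32.5 in ES; genes there have related copies, so read assignment is uncertain. The start of Rfx2, a transcription factor of ciliated cells, had a 20 kb contact with its own gene body that rose by 1.24 ± 0.25, with 2.73 to 7.24 CPM at day 6 and 9.76 to 17.9 in ES. This call was lost without day 6 library 2 or 4 (adjusted p = 0.0566 and 0.0586, edgeR). No gene lay in the bins of a 30 kb contact on chromosome 17 (from 66450001), which rose by 1.1 ± 0.23 and was not called without day 6 library 2 (adjusted p = 0.0967, edgeR). Eif4ebp1, a repressor of cap-dependent translation, and Sptlc2, a subunit of the first enzyme of sphingolipid synthesis, had contacts that rose by 1.05 ± 0.19 and 1.01 ± 0.20; the second was not called without day 6 library 2 (adjusted p = 0.0558, edgeR). Tead1, a DNA-binding factor of the Hippo pathway, had an adjacent contact that rose by 1.06 ± 0.27 (adjusted p = 0.0171, edgeR). Its CPM was 6.88 and 6.85 in ES libraries 1 and 2 but 20.3 and 19.1 in 3 and 4, against 3.59 to 6.12 at day 6. In libraries 1 and 2 alone, with 1 ES sample and so without a test, its log2 ratio was -0.05. Leaving out day 6 library 1, 2, 3 or 4 or ES library 4 ended the call (adjusted p = 0.0524, 0.162, 0.0885, 0.0883 and 0.181, edgeR).

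The other 44 increases had log2 ratios below 1. Apart from Trim28 they are named after their values were seen. Trim28 encodes a corepressor that silences retroelements in ES cells. The contact of its start bin with the neighbouring bin in Zbtb45 (chromosome 7, from 13010001) had 8.80, 5.46, 5.50 and 4.81 CPM at day 6 and 13.97, 12.6, 19.8 and 18.7 in ES, a log2 ratio of 0.91 ± 0.20 (adjusted p = 0.00556, edgeR). The groups did not overlap, but the call was lost without day 6 library 2 (adjusted p = 0.0895, edgeR) or 4 (adjusted p = 0.0801). Zscan10, a zinc finger gene of ES cells, had a 30 kb contact with Zfp13 that rose by 0.80 ± 0.23, and Plk3, a polo-like kinase, an adjacent one that rose by 0.82 ± 0.21.

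Some of these joined gene starts to other gene starts. The starts of Baz2a, a subunit of a complex that silences ribosomal DNA, and Rbms2 stood 90 kb apart, and their contact rose by 0.97 ± 0.24, with 1.68 to 3.09 CPM at day 6 and 4.79 to 8.45 in ES. The starts of Rfxank, a regulator of MHC class II genes, and Mef2b, a MEF2 family factor, were 20 kb apart with a ratio of 0.95 ± 0.21. Long contacts within or between gene bodies joined bins of Sh3pxd2a over 70 kb (0.93 ± 0.24), of Ahnak over 80 kb (0.82 ± 0.23) and of Trappc9 and Ago2, an Argonaute protein, over 120 kb (0.87 ± 0.23). An adjacent pair in a cluster of tRNA genes on chromosome 13 (from 23500001) had 5.19 to 5.84 CPM at day 6 and 12.2 to 19.3 in ES (0.91 ± 0.20), and tRNA genes have near-identical copies, so read assignment there is uncertain. Tfap2a, a factor of surface ectoderm and trophoblast, Msmo1, an enzyme of cholesterol synthesis, and Myh9, a nonmuscle myosin, had contacts with ratios of 0.84 ± 0.21, 0.75 ± 0.21 and 0.85 ± 0.22.

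Among the called decreases 3 had CPM that did not overlap between the groups, against 53 of the 54 increases. Over all tested interactions every ES library was lower in 3 (0.145%) and higher in 750 (36.1%). Overlap was scored on CPM without TMM factors, so the common shift toward ES favoured separation of increases over decreases. Contacts that fell under the minimum of the ES list were not among those tested. The counts of separated increases and decreases can therefore not be compared. Myof encodes myoferlin, a membrane repair protein of fibroblasts and muscle. A 90 kb contact from its start bin into the gene body (chromosome 19, bins from 37950001 and 38040001) had 6.37, 6.68, 7.37 and 9.27 CPM at day 6 and 4.51, 3.05, 6.18 and 1.93 in ES. The lowest day 6 value lay just above the highest ES value. The log2 ratio was -1.42 ± 0.28 (adjusted p = 0.00167, edgeR), and this was the 1 interaction still called lower under contact totals alone (log2 -0.82, adjusted p = 0.0193). With TMM the call was lost without day 6 library 4 (log2 -1.20, adjusted p = 0.0586, edgeR).

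A 210 kb contact joined the start bin of Prdx3, a mitochondrial peroxidase, to a bin in Grk5 and Zfp950 (chromosome 19, from 60870001). It had 7.28, 7.57, 7.37 and 5.15 CPM at day 6 and 4.06, 4.57, 4.12 and 4.62 in ES, with day 6 library 4 nearest to ES. The log2 ratio was -1.03 ± 0.28 (adjusted p = 0.0309, edgeR), -0.43 (adjusted p = 0.214) under contact totals. Leaving out any library but ES library 2 ended the call (adjusted p = 0.0552 to 0.143, edgeR). The start of Alad, an enzyme of heme synthesis, and a bin in Bspry and Hdhd3 (chromosome 4, from 62490001) had a 20 kb contact with 8.81 to 11.1 CPM at day 6 and 6.59 to 8.63 in ES. Its log2 ratio was -0.94 ± 0.18 (adjusted p = 0.00167, edgeR) and -0.34 (adjusted p = 0.102) under contact totals. The other 13 called decreases, which include contacts in Akt1, Pla2g7, Dapp1 and Serinc5 and were singled out after their values were seen, had overlapping CPM. Their log2 ratios kept the same sign under contact totals alone but none passed the test there.

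**Figure D2:**
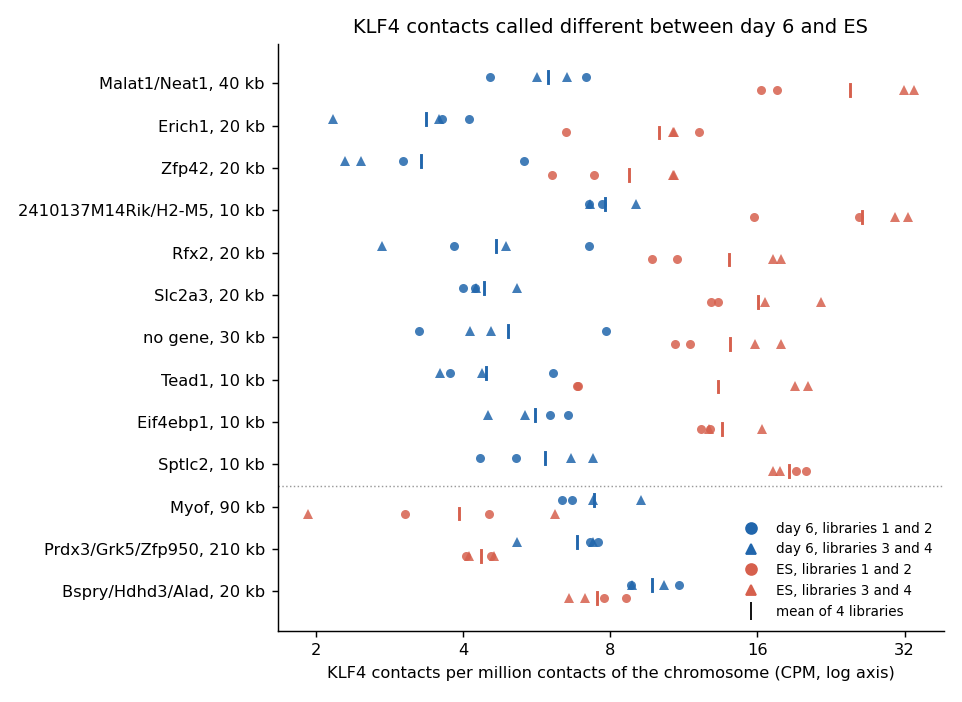
CPM of the 13 named KLF4 interactions in each library (log axis), labelled by genes in their bins and the distance between bins; circles are libraries 1 and 2, triangles libraries 3 and 4, bars the mean of 4. Above the dotted line every ES library exceeds every day 6 library, and below it the order is reversed; at Tead1 the ES circles lie close to day 6.

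H3K27ac contacts of separate libraries give a readout that did not enter these calls. All 54 interactions called higher in ES stood in the H3K27ac list of ES cells (100%, against 82.95% of the 2076 tested), and 38 stood in that of fibroblasts (70.4%, against 63.9%). For the 38 in both lists the H3K27ac CPM was higher in ES than in fibroblasts at 37, with a median log2 ratio of 1.66, whereas over the 1179 tested interactions in both lists it was higher at 829 (70.3%) with a median of 0.33. At the Malat1 and Neat1 contact it was 16.8 and 23.7 CPM in the fibroblast libraries and 129 and 123 in the ES libraries. At the Slc2a3 contact it was 6.86 and 6.52 in fibroblasts and 63.8 and 60.8 in ES, and the Zfp42 contact was listed in ES alone (32.1 and 31.7 CPM). Each of the 3 thus had a high H3K27ac contact in ES.

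Of the 16 called lower, 11 stood in the H3K27ac list of ES (68.75%, against 82.95% of all tested). In that of fibroblasts 10 stood (62.5%, near the 63.9% of all tested). The 7 in both were higher in ES at 1, with a median log2 ratio of -0.68. At the Myof contact H3K27ac had 10.1 and 14.6 CPM in fibroblasts and 6.59 and 4.16 in ES. Over the 1179 interactions the log2 ratios of KLF4 (ES over day 6) and of H3K27ac (ES over fibroblasts) had a Pearson r of 0.466 and a Spearman rho of 0.414 across interactions, which share bins and are not independent. The H3K27ac ratios rest on 2 libraries per group and were not tested.

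**Figure D3:**
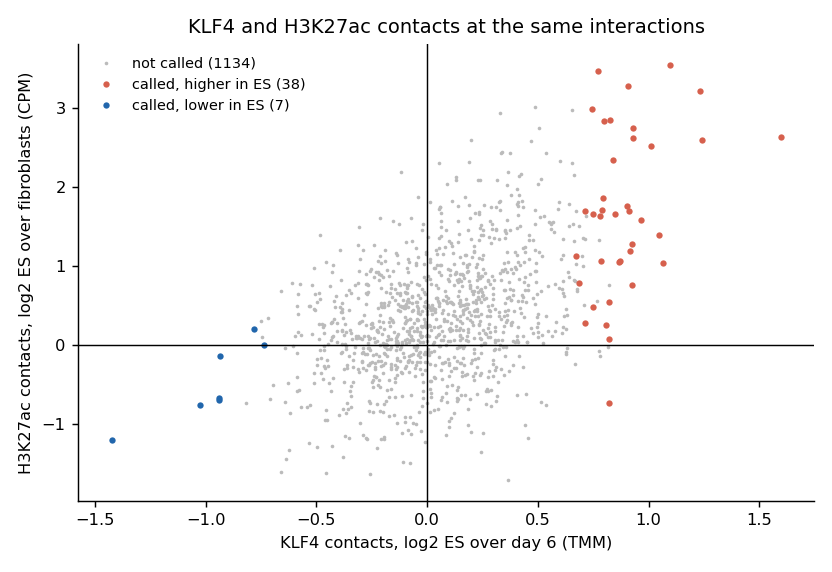
Log2 ratio of H3K27ac contacts in ES over fibroblasts (CPM) against the log2 ratio of KLF4 contacts in ES over day 6 (TMM) for the 1179 tested interactions in both H3K27ac lists, 1 point each. Of the 38 points called higher for KLF4, 37 lie above the line at 0, and of the 7 called lower, 1 does.

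The interactions were then divided into those of day 6 alone (1968), of both lists (2079) and of ES alone (22510). At day 6 alone, 77.1% had no start of a protein-coding gene at either anchor (75.2% to 78.9%), against 53.1% (51.0% to 55.2%) of both and 56.0% (55.3% to 56.6%) of ES alone. Starts at both anchors were found in 2.08%, 8.47% and 7.37%. Most contacts of every class thus joined bins without a protein-coding gene start, and the share was highest at day 6 alone. Their mean CPM had a median of 4.53, against 4.84 (day 6 values) in both and 5.10 in ES alone; these values share the minimum of 3 CPM and mix chromosomes of different scale, so they were not compared.

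The classes differed in the other contact lists. Contacts of day 6 alone stood in the ES H3K27ac list in 32.7% of cases (30.6% to 34.8%), in both in 82.9% (81.2% to 84.5%) and in ES alone in 73.1% (72.6% to 73.7%). In the fibroblast H3K27ac list the shares were 42.2%, 63.9% and 33.7%. A fibroblast H3K27ac contact that ES cells lacked was found at 24.1% of day 6 alone, 7.12% of both and 5.62% of ES alone, and the reverse at 14.5%, 26.2% and 45.1%. At day 6 alone 43.2% stood in neither H3K27ac list, against 9.96% and 21.2%. The KLF4 list of day 3, from bulk cells of the same reprogramming system, held 55.5% of day 6 alone, 72.1% of both and 26.2% of ES alone.

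The lists of Hi-C, which uses no antibody, were longer (228083 interactions in fibroblasts and 318622 in ES) than the H3K27ac lists (60870 and 75466). Shares in lists of such unlike length cannot be compared between the assays. The fibroblast Hi-C list held 61.3% of day 6 alone, 70.4% of both and 47.4% of ES alone, and the ES Hi-C list 61.5%, 76.9% and 61.5%. Few contacts crossed a border of the authors' ES domains (1.63%, 1.11% and 1.42%). For their fibroblast domains the shares were 1.12%, 1.06% and 2.32%, the last with an interval of 2.13% to 2.53%. Contacts of each class had a median span of 20 kb, and no expected share was computed. Day 6 alone was also restricted to adjacent bins or to a deposited p-value under 0.01. Other restrictions were to contacts with no ES contact within 1 bin or to chromosomes other than 17 and 19. All of them left 79.5% to 81.6% without a protein-coding gene start, and 23.4% to 37.9% in the ES H3K27ac list. These restrictions were chosen after seeing the data. Each list has 1 set of calls per group, so the intervals cover counting error and not the spread between samples.

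**Figure D4:**
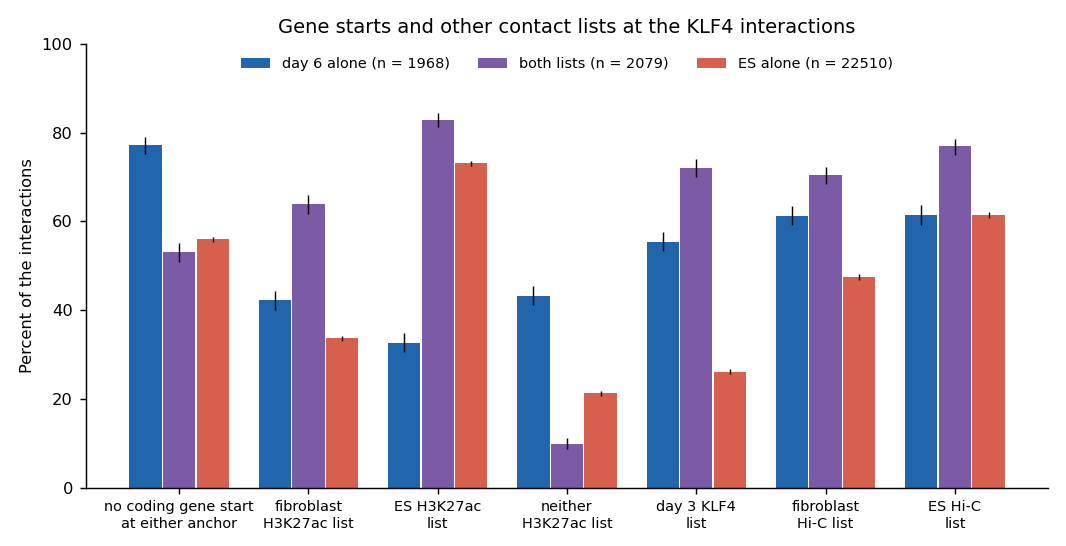
Percent of the KLF4 interactions of day 6 alone, of both lists and of ES alone without a protein-coding gene start at either anchor, and percent that also stand in other contact lists (bars, with 95% Wilson intervals). Contacts of day 6 alone have the highest share without a protein-coding gene start (77.1%) and the lowest share in the ES H3K27ac list (32.7%).

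Genes were described by the listed contacts of the bins that hold their starts. Of 121 genes in 8 lists, 83 were matched to a start in the RefSeq promoter table, and 57 of them had a KLF4 contact in at least 1 list. At 53 the ES list had more contacts (93.0%), at 3 the day 6 list, and at Ctcf both had 1. Among all 17492 protein-coding genes 5973 had a contact, of which 93.5% had more in ES and 2.95% more at day 6, so the share in the lists is that of all genes. With both KLF4 lists cut to 4047, the 28 list genes that kept a contact split into 14 with more in ES, 7 with more at day 6 and 7 equal (all genes 47.6% and 37.1%).

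Naive pluripotency factors had 16 ES contacts, at 7 of 9 measured genes (77.8%, against 33.3% of all protein-coding genes). They had 1 day 6 contact, at 1 gene (11.1%, against 7.39%). Klf2, Nr5a2, Nanog and Tcl1 each had 3 in ES and none at day 6, Zfp42 had 2 in ES and 1 at day 6, and Klf4 and Nr0b1 had 1 in ES alone. Among general pluripotency factors the day 6 list had a contact only at Trim28 of the 10 measured (10%), and the ES list 24 contacts at 7 (70%). The start bin of Pou5f1, which encodes OCT4, had 7 in ES, over 10 to 50 kb, and none at day 6. The strongest, to the next bin with Tcf19, had a CPM of 12.6, 11.9, 12.3 and 12.8 in the ES libraries. Mycn, a growth-promoting MYC family factor, had 5, of which the longest spanned 160 kb with 4.41, 5.25, 10.7 and 10.4 CPM. Its ES libraries 3 and 4 stood above 1 and 2. The start bin of Sox2 had no listed KLF4 contact in either list. With both lists cut to equal length the naive factors had 3 ES contacts and 1 day 6 contact, and the general factors 6 and 1. In this shorter ES list Nanog, Nr5a2, Tcl1 and Mycn had none, Klf2 had 1 and Pou5f1 had 3.

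Signalling genes of the LIF, FGF and TGF-beta families had 28 ES contacts at 12 of 13 measured genes and 3 contacts at 3 genes at day 6, against shares of 33.3% and 7.39% of all protein-coding genes. With both lists cut to equal length the family had 3 contacts in each, with 1 gene higher in ES and 1 higher at day 6. The day 6 contacts were at Stat3, the transcription factor downstream of LIF, at Il6st, the shared receptor subunit gp130, and at Fgf4, a growth factor of ES cells. The Il6st contact (20 kb) had 5.19 to 7.98 CPM at day 6 and 9.95 to 15.3 in ES. Its log2 ratio was 0.50 ± 0.20 with TMM and was not called (adjusted p = 0.17, edgeR). Under contact totals alone it was 1.10 (adjusted p = 4.43e-06, edgeR), where 55.8% of all tested were called higher. All 8 genes of DNA methylation and its removal had contacts in ES, 21 in total, and none had one at day 6. Dnmt3a, a de novo methyltransferase, had 7 at its start bins, Dnmt3b 5 and Dnmt3l, their cofactor, 3. Over all protein-coding genes 33.3% had an ES contact and 7.39% one at day 6, so none of 8 at day 6 is near the background. Over its whole gene body Tet1, a hydroxylase of methylated cytosine, had 2 day 6 contacts and 6 in ES. With both lists cut to equal length 3 of the 8 genes kept an ES contact.

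Epithelial adhesion and keratin genes had a day 6 contact at 5 of 11 measured genes, namely Epcam, Cldn6, Krt8, Krt18 and Tjp1, against 7.39% of all protein-coding genes, and an ES contact at 8 (33.3% of all genes). The epithelial genes had 7 contacts at day 6 and 37 in ES, and 7 in each at equal list length. Krt18, a keratin of simple epithelia, had 2 at day 6 and 7 in ES, and 2 in each at equal length. Its 10 kb contact had 5.55, 5.68, 8.78 and 6.07 CPM at day 6 and 9.395, 10.7, 10.15 and 10.4 in ES, higher in every ES library but not called with TMM (log2 0.06 ± 0.20, adjusted p = 0.911, edgeR). Tjp1 encodes the tight junction protein ZO-1. The start used here (65371244, minus strand) lies inside the gene, which spans 65296165 to 65527850 on chromosome 7. A 60 kb contact joined its bin to a bin in the gene body upstream of it (from 65430001). This contact had 3.06, 3.20, 5.50 and 3.35 CPM at day 6 and 3.01, 3.60, 3.01 and 2.99 in ES. The groups overlapped, yet it was called lower (log2 -0.88 ± 0.24, adjusted p = 0.028, edgeR), and not without day 6 library 3 (log2 -0.69, adjusted p = 0.194). Libraries 1, 2 and 4 of day 6 and library 1 of ES also ended the call when left out (adjusted p = 0.0524, 0.0895, 0.0888 and 0.0566), as did ES library 4 (0.0771).

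Fibroblast and mesenchymal genes had 2 contacts at day 6, at 2 of 16 measured genes (12.5%, against 7.39% of all protein-coding genes), and 6 in ES, at 3 genes (18.75%, against 33.3%). At equal list length these genes had 2 contacts at day 6 and 1 in ES. Both day 6 contacts were absent from the ES list and present in the fibroblast H3K27ac list. The start of Acta2, which encodes smooth muscle actin, was joined over 40 kb to the start of Fas with 3.64, 5.34, 5.67 and 6.87 CPM, and that of Col6a1, a collagen chain, over 20 kb to its own gene body with 4.63, 3.96, 2.87 and 3.47 CPM. At its start bins Runx1, a factor of blood and mesenchyme, had 2 in ES alone. The adjacent one had 17.4, 12.2, 11.96 and 16.8 CPM. Over its whole gene body Runx1 had 4 at day 6 and 4 in ES. The starts of Col1a2, Col3a1, Vim, Twist1, Prrx1 and Zeb2 had none in either list. AP-1 and immediate early genes had 6 contacts at day 6 and 18 in ES at 8 measured genes. Of these genes 4 had a day 6 contact (50%) and 5 an ES contact (62.5%). With both lists cut to equal length there were 6 and 9 contacts. Jun had 1 at day 6 alone (3.92 to 4.57 CPM), and Fos, Junb and Fosb had 2, 2 and 1 at day 6 and 8, 3 and 2 in ES. Among architectural and coactivator genes Yy1 had 1 and 4, Ep300 none and 4, and Ctcf 1 and 1. Cut to equal length, the lists held 2 contacts of the architectural and coactivator genes at day 6 and 1 in ES.

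Of the contacts in both lists, 16 lay at starts of 13 list genes, and 3 were called with TMM, against 3.37% of all tested. The 3 were those of Zfp42, Trim28 and Tjp1 described above. The median log2 ratio of the 16 was 0.28 with TMM, against -0.01 over all tested, and 0.88 under contact totals, against 0.58. Contacts at Stat3 (log2 -0.53), Cldn6 (-0.26), Krt18 (20 kb, -0.14) and Fos (10 kb, -0.14) changed sign under contact totals (0.06, 0.34, 0.46 and 0.46), and none was called with TMM. Both Junb contacts were higher in every ES library. With TMM their log2 ratios of 0.63 ± 0.19 and 0.62 ± 0.20 missed the threshold (adjusted p = 0.0557 and 0.0692, edgeR). Under contact totals alone, where 55.8% of all tested were called higher, both passed it (adjusted p = 2.43e-07 and 2.71e-07, edgeR).

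**Figure D5:**
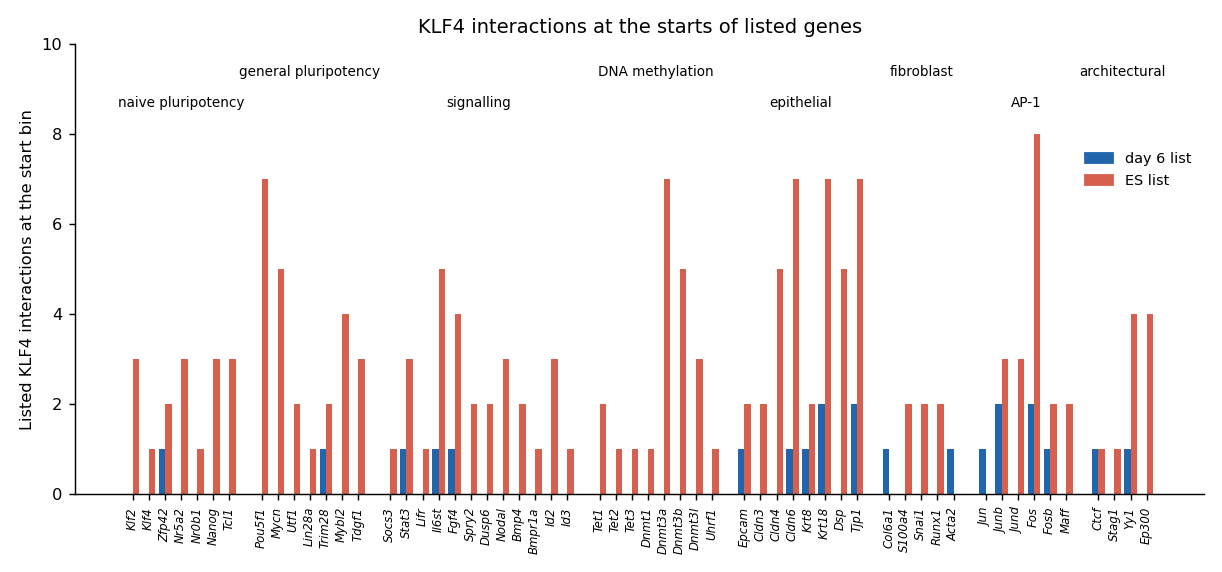
Number of listed KLF4 interactions at the bins of the gene starts for the 57 list genes with at least 1, by gene list (blue day 6, red ES). The ES bar is higher at 53 genes, and Col6a1, Acta2 and Jun have a day 6 interaction alone.

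Bins with many contacts were compared next. The bin with the most day 6 contacts, at the start of Gbf1, an exchange factor of Golgi traffic, had 11 at day 6 and 17 in ES, followed by the start bin of Pola2, a DNA polymerase alpha subunit, with 9 and 18 and a bin with Uqcc3 and Lbhd1 with 9 and 19. The bins with the most ES contacts lay in Snx15 (2 at day 6, 21 in ES) and Ahnak (8 and 20), and the start bin of Rcor2, a corepressor subunit, had 18 in ES and none at day 6. All of these lie on chromosome 19, and the order of the counts depended on the cut of the lists. With both lists cut to equal length the ES counts were 5 at Gbf1, 7 at Pola2 and 4 at the Uqcc3 bin, below the day 6 counts, and with 1 minimum for all chromosomes the 3 bins had 1, 0 and 0 at day 6 and 2 each in ES. The Gbf1 contacts stood mostly in the fibroblast H3K27ac list in both groups, 11 of 11 at day 6 and 13 of 17 in ES, and 1 of each stood in the ES H3K27ac list.

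The largest excess at day 6 was next to Gnaq, which encodes a G protein alpha subunit. A bin without a gene start just before the Gnaq start bin (chromosome 19, from 16120001) had 9 contacts at day 6, at 2.32 to 8.74 mean CPM, and 1 in ES. With 1 minimum for all chromosomes, which left 558 day 6 and 10861 ES interactions, this bin had none at day 6 and 1 in ES. With both lists cut to equal length the ES count was 1. What the excess rests on was not tested. The Gnaq start bin itself had 9 in each list, and a bin in the gene body (from 16210001) had 6 at day 6 and none in ES. In the day 3 KLF4 list these bins had 15, 20 and 13 contacts, and in the H3K27ac lists 5, 16 and 6 in fibroblasts and none, 9 and 2 in ES. The contact of the upstream bin with the Gnaq start bin was the 1 in ES, with 11.3, 15.25, 14.9 and 13.48 CPM, and was not in the day 6 list. On chromosome 17 a bin from 27400001 had 8 contacts at day 6 and 1 in ES, none in either H3K27ac list and 1 in the day 3 list. Its contact with the bin of Gm35007 was the strongest (11.5, 12.4, 10.9 and 14.4 CPM). Another, from 14140001 near Dact2, had 7 and 1, and a bin in Pcx, which encodes pyruvate carboxylase, had 6 and none. With 1 minimum the bin from 27400001 kept 2 at day 6 and none in ES, and the bins near Dact2, in Pcx and in the Gnaq body had none in either list.

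Contacts 50 kb or more apart made up 9.44% of the day 6 list (8.58% to 10.4%) and 15.98% of the ES list (15.5% to 16.5%). The longest spanned 420 kb in the day 6 list, at an interaction of both lists, and 1020 kb in ES. With both lists cut to the 4047 strongest by CPM the ES share was 1.58%, below that of day 6; this cut also changes the strength and the chromosomes of the ES contacts. With 1 minimum for all chromosomes the shares were 0.538% of 558 interactions at day 6 (0.183% to 1.57%) and 1.27% of 10861 in ES (1.08% to 1.5%). These intervals overlap. Chromosome 19 held 16.3% of the day 6 list and 9.03% of the ES list, and chromosome 1 held 39 and 740 interactions. With 1 minimum over the whole library in place of the minimum per chromosome, chromosome 19 held 4.48% and 4.12%.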

How the data were processed

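The deposited interaction lists give, per the file headers, for each library a raw count of contacts and a CPM value, with a p-value per interaction; the test behind it is not given in the sources used here. Deposited CPM equals the count over the contacts of the same chromosome, which gave the contact totals. The deposited distance-normalized ratio and the deposited Hi-C signal were not used as strength. Per the submitters' processing notes reads were aligned with Bowtie2 2.2.3 to mm10. TMM factors on contact totals, filterByExpr and edgeR 4.0.16 (R 4.3.3) were run on the counts of interactions in both lists, with ES libraries 1 and 2 and 3 and 4 summed; the step was tested on simulated data. DESeq2 1.42.0 was an alternative. Tables were made with Python 3.11.15, pandas 2.3.3 and scipy 1.17.1. Gene starts came from RefSeq (GRCm38.p6; 27025 genes).

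The members and the gene lists were chosen with earlier results of these data known. Named interactions were the 10 largest log2 ratios per direction among calls with CPM that did not overlap between the groups (all if fewer), the 6 strongest by mean CPM of each class, the 5 bins with most contacts, up to 30 list genes with a contact, and up to 6 promoters of named genes. Further list genes were named after their values were seen. The TKO list at 24 h was not analysed here.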

Additional observations from a re-analysis of the deposited data

Results flagged for a closer look

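In 6 of 80 groups of 4 libraries 1 value stood apart from the other 3 beyond the 95% limit of Dixon's test, where chance gives about 1 in 20. The Eif4ebp1 contact had its highest ES value, 16.4 CPM, in library 4, and the 210 kb contact of Prdx3 its lowest day 6 value, 5.15 CPM, in library 4. A 20 kb contact inside Sfi1 had its highest day 6 value, 89.9 CPM, in library 3. The 10 kb contact of Krt18 had its highest day 6 value, 8.78 CPM, in library 3. The 60 kb contact of Tjp1 stood out in both groups, with 5.50 CPM in day 6 library 3 and 3.60 CPM in ES library 2.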

How the results depend on the processing

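The 70 calls became 1159 with contact totals, 1044 with contact totals of each chromosome, 14 with DESeq2 (which gave no adjusted p for 1771 interactions), 101 with all 8 libraries separate and 127 with these and the replicate number as a block, 4 and 113 with libraries 1 and 2 or 3 and 4 alone (1 ES sample each, assumed to vary like day 6), 43 at 20 kb or more and 10 at 50 kb or more, and 11 to 90 with 1 library left out. Without a filter there were 70, and with the day 6 libraries joined in pairs 61. The replicate numbers do not pair the libraries: deviations of same-numbered libraries correlated at 0.002 to 0.039, others at -0.051 to 0.026, and 2 of 4 day 6 libraries correlated best with their own number. Counting all of these settings, with the fits of 1 ES sample among them, none of the 70 calls held under every one. With libraries 1 and 2 alone the log2 ratio changed sign at Tead1 (7:112680001:112690001, -0.05) and at a contact on chromosome 6 (6:94750001:94770001, -0.02). At an unadjusted p under 0.05 there were 370 interactions.

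The overlap as a share of the day 6 list was 21.1% at equal length, 55.0% with 1 minimum, 43.5% at a deposited p under 0.01, 49.4% at 20 kb or more, 41.4% at 50 kb or more and 67.4% with anchors 1 bin away. The median log2 CPM ratio was 0.40 at 50 kb or more, 0.59 per whole library, and 0.49 to 0.60 with 1 library left out. Day 6 alone had no protein-coding gene start at 81.6% (no ES contact within 1 bin) and 81.3% (deposited p under 0.01). The share was 80.5% without chromosomes 17 and 19 and 79.5% at adjacent bins. Day 6 alone stood in the ES H3K27ac list at 23.4%, 37.9% and 30.5% with no ES contact within 1 bin, a deposited p under 0.01 and adjacent bins. In the fibroblast list it stood at 39.4% with no ES contact within 1 bin. These settings were added after seeing the data. List genes with more contacts in ES numbered 53, 14 at equal length and 84 over gene bodies, the last chosen after seeing the data. With 1 minimum the share at 50 kb or more was 0.538% of the day 6 list (n = 558) and 1.27% of the ES list (n = 10861). At equal length it was 1.58% of the ES list. On chromosome 19 the shares were 4.48%, 4.12% and 20.8%. Medians of 11 to 24 counts per interaction limit what single contacts can show.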

Other observations

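The strongest contacts of either list lay within about the same stretch of chromosome 11 at Sfi1, a centrosomal gene with related copies nearby, so read assignment there is uncertain. At day 6 the bin from 3170001 was the shared anchor of the 5 strongest contacts of day 6 alone; that with the next bin had 120, 136, 131 and 143 CPM. In ES the bin from 3150001 was the shared anchor of the 5 strongest of ES alone; that with the bin before it had 117, 126, 112 and 109 CPM. The contact between the bins from 3150001 and 3170001 stood in both lists, with 80.4 to 89.9 CPM at day 6 and 94.5 to 121 in ES.

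Outside this region the 8 strongest contacts of day 6 alone and the 8 of ES alone, chosen after seeing the data, were pairs of adjacent bins on chromosome 19. This order is by CPM of the chromosome, whose scale differs between chromosomes: with 1 minimum for all chromosomes the share of chromosome 19 in the day 6 list was 4.48% in place of 16.3%. Those of day 6 alone included Ppp6r3, a phosphatase subunit, with 15.5, 13.8, 14.2 and 14.8 CPM and in neither H3K27ac list, and Stip1, a chaperone adaptor, with 15.5, 13.4, 11.3 and 14.4. Those of ES alone included the start of Cep55, a factor of cell division, with 15.3, 18.3, 24.2 and 25.8 CPM, and Kif11, a mitotic kinesin, with 16.3, 21.3, 24.2 and 18.1. The H3K27ac contact at Cep55 had a mean of 13.3 CPM in fibroblasts and 57.3 in ES. A contact on chromosome 19 from 14610001, with no gene in its bins, was strong at day 6 alone (15.5, 15.6, 13.0 and 11.3 CPM), and 40 kb further another, from 14650001, was strong in ES alone (24.4, 24.4, 18.03 and 19.65 CPM).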
